A study of Mus musculus with 12 samples.

Results

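The genes described here are 10 nuclear genes that direct the making of mitochondria in mouse macrophages and osteoclasts: Ppargc1b, Pprc1, Esrra, Nrf1, Gabpa, Tfam, Tfb1m, Tfb2m, Polg and Polrmt. They were taken from a fixed list of mouse gene symbols and matched to the Ensembl identifiers of the deposited expression table, where all 10 of 10 were found among 54532 genes. The table came from RNA sequencing of 12 libraries in 4 groups of 3. All cells came from the marrow of WT mice (femurs and tibiae) and were expanded as bone-marrow-derived macrophages in CMG, a source of the growth factor M-CSF, which was also present during the later culture. Macrophages stayed without RANKL. Osteoclasts, the multinucleated cells that resorb bone, were made from such macrophages with RANKL, given as 100 ng/mL in the sample source and as a range from 50 to 100 ng/mL in the protocol. On day 5 each cell type was left untreated or given LPS (lipopolysaccharide of the bacterial outer membrane) at 100 ng/mL for 3 h. The labels do not say whether the 3 libraries of a group came from separate animals or cultures, so p-values measure only the spread between these libraries, which may be technical.

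A cell makes new mitochondria by transcribing 2 genomes in step, the nuclear one and the small circular one inside the organelle. Coactivators of the PGC-1 family (PGC-1beta, encoded by Ppargc1b, and PRC, encoded by Pprc1) bind no DNA themselves and work through DNA-bound factors, among them the orphan nuclear receptor ERRalpha (Esrra), NRF1 (Nrf1) and the ETS factor GABPA or NRF-2alpha (Gabpa). Such factors drive nuclear genes for mitochondrial proteins, including those that copy and read mitochondrial DNA: the packaging and transcription factor TFAM, the mitochondrial RNA polymerase POLRMT, its initiation factor TFB2M, the ribosomal RNA methyltransferase TFB1M and the catalytic subunit of the DNA polymerase POLG. PGC-1beta and ERRalpha are known for their part in the formation and activity of osteoclasts, which are rich in mitochondria.

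RefSeq promoter windows on GRCm38.p6, from 250 bases before to 50 bases after a start, were used for 9 of the 10 genes, all but Ppargc1b. Each was searched on both strands for GCGCANGCG (the NRF1 motif), CCGGAAG (the ETS motif bound by GABPA), TNAAGGTCA (ERR), AANATGGCG (YY1), CACGTG (the E-box of MYC and others) and GGGANTTTC (NF-kB). The NRF1 letters were in the windows of 3 of the 9 genes and in 6.25% of all 32851 windows. The ETS letters were in those of 4 of the 9 genes and in 8.86% of all windows. The YY1 letters were found for Gabpa alone (2.38% of all windows), and the ERR, E-box and NF-kB letters for 0 of the 9 genes (1.28%, 7.15% and 1.11% of all windows). The stretches below hold the NRF1 and ETS matches, which are in capitals, so that genes whose levels moved together or apart can be set beside the letters they carry. A match describes the sequence and shows no binding. In GENCODE M21 the whole Tfam and Polg stretches and parts of those of Gabpa (18 bases), Polrmt (21 bases) and Tfb2m (12 bases) are annotated as untranslated exon of some transcript of the gene. Positions are counted from the start base of the RefSeq window, which is 0. The matches are at -141 (NRF1) for Esrra, at -93 (ETS) for Gabpa, at -47 (ETS) for Tfam, at 12 (NRF1) for Tfb2m, at -38 (ETS) for Polg, and at -43 (ETS), -5 and 1 (NRF1) for Polrmt, whose pair of NRF1 matches overlap each other.
Esrra, chr19:6921916-6921974, minus strand: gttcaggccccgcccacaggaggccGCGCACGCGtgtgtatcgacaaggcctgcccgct
Gabpa, chr16:84835006-84835062, plus strand: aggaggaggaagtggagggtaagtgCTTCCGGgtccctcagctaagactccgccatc
Tfam, chr10:71238074-71238102, minus strand: cctgccgcggaCCGGAAGtccgggcttcc
Tfb2m, chr1:179546256-179546289, minus strand: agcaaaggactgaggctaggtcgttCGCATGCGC
Polg, chr7:79466294-79466322, minus strand: gaggacctcacCCGGAAGtccctctgcac
Polrmt, chr10:79746561-79746649, minus strand: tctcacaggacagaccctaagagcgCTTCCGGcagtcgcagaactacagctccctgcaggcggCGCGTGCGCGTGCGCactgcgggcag
Esrra, Tfb2m and Polrmt, the genes with the NRF1 letters, were among the 4 genes that were higher in osteoclasts without LPS, while of the genes with the ETS letters Polrmt was higher, Gabpa and Polg were lower and Tfam was not called there. Of all genes 38.8% were higher there, and in TPM Polrmt was not called (0.14, limma adjusted p 0.158) and Tfam was lower (-0.26, limma adjusted p 0.0223). With LPS in macrophages the genes with the NRF1 letters split. Esrra rose (0.34, but -0.28 in TPM) while Tfb2m and Polrmt fell (-0.42 and -0.81). Of those with the ETS letters Gabpa rose there, Polg and Polrmt fell and Tfam was not called. Nrf1 itself was lower in untreated osteoclasts (-0.43). These are descriptions of few genes, with no test.

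Libraries held between 15651381 and 20280948 reads assigned to genes. The cell type labels held against their markers: the summed FPKM of 10 osteoclast markers was 16.3 to 20.5 in untreated macrophages and 29794 to 31237 in untreated osteoclasts, and 9 of 10 macrophage markers were lower in osteoclasts, Cd68 being the exception. Csf1r, the M-CSF receptor, remained at 310 FPKM in untreated osteoclasts against 441 in macrophages. The 6 LPS response markers rose in both cell types, from a sum of 57.2 to 62.2 FPKM to one of 10583 to 10893 in macrophages, and from 8.16 to 10.2 FPKM to 396 to 687 in osteoclasts. Of the other cell types looked for, neutrophil, B cell and T cell markers summed to at most 4.75, 1.14 and 3.96 FPKM. A list of 7 stromal markers summed to 26.7 to 36.7 FPKM in untreated and 29.0 to 35.4 FPKM in LPS-treated macrophages, mostly Col1a1, and to at most 1.48 FPKM in osteoclasts. These markers therefore moved with cell type, and their part in the differences between osteoclasts and macrophages was not tested. In bulk libraries, fewer cells of a type and less RNA per cell cannot be told apart.

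Levels are FPKM (fragments per kilobase of gene, scaled per library). The lengths that fit the values are merged exons of all annotated transcripts, which can exceed the length of a single transcript. Orders and ratios between genes rest on these lengths, while changes of a gene or a ratio between groups do not. Differences are log2 differences of FPKM + 1 with the standard error (SE) of limma, fitted over all 12 libraries, and a gene was called where its Benjamini-Hochberg adjusted p over 11335 tested genes was under 0.05. Of the 10 regulators, 9 reached the filter of 1 FPKM in at least 3 libraries. Tfb1m reached 1 FPKM in 2 libraries and was left out of that fit.

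Untreated osteoclasts differed from untreated macrophages in 8 of the 9 tested regulators. Ppargc1b, Esrra, Tfb2m and Polrmt were higher, Pprc1, Nrf1, Gabpa and Polg were lower, and Tfam was not called. The background was high: limma called 77.8% of all tested genes, and osteoclasts were higher for 38.8% and lower for 39.0%. The median log2 difference of the 9 regulators was 0.12, and that of all genes was at 0 to 2 decimals.

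LPS moved 7 of the 9 in macrophages: Ppargc1b, Gabpa, Esrra and Nrf1 rose, and Polrmt, Polg and Tfb2m fell. Pprc1 and Tfam were not called. In TPM, a scaling described below, Ppargc1b alone was called higher, Gabpa was not called, and the other 7 were called lower. Over all genes 69.9% were called as deposited, 36.8% higher and 33.1% lower. In TPM 9730 of the 11335 genes were called, and 18.5% of these calls were higher. The median was -0.02 for the regulators and 0.02 for all genes.

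In osteoclasts LPS gave 0 calls among the 9 by limma, with 1 gene (Pprc1) at an unadjusted p under 0.05, and 0 calls with 1 such gene by limma's voom on recovered reads. Of all tested genes 17.7% were called there, 11.1% higher and 6.59% lower. The ends of the 95% intervals of the 9 log2 differences ran from -0.28 to 0.27. The LPS effects of the cell types differed, by the interaction, for 6 of 9 (Ppargc1b, Esrra, Gabpa, Tfb2m, Polg and Polrmt), and 56.6% of all tested genes passed that test, 26.6% with a higher and 30.0% with a lower effect in osteoclasts. After LPS, osteoclasts and macrophages differed in all 9 tested regulators, 5 higher and 4 lower in osteoclasts, against a background of 83.9% called, with 40.9% higher and 43.0% lower.

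By overlap alone, and for all 10 genes, the libraries of the groups compared stood apart for 8 genes between the untreated cell types, for 8 with LPS in macrophages, for 1 (Gabpa) with LPS in osteoclasts and for 10 between the LPS-treated cell types. Over all tested genes these shares were 81.4%, 74.0%, 34.0% and 83.6%. The counts among the regulators were close to these shares between the untreated cell types and with LPS in macrophages, above them between the treated cell types and below them with LPS in osteoclasts, and none of these departures was tested.

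**Figure D1:**
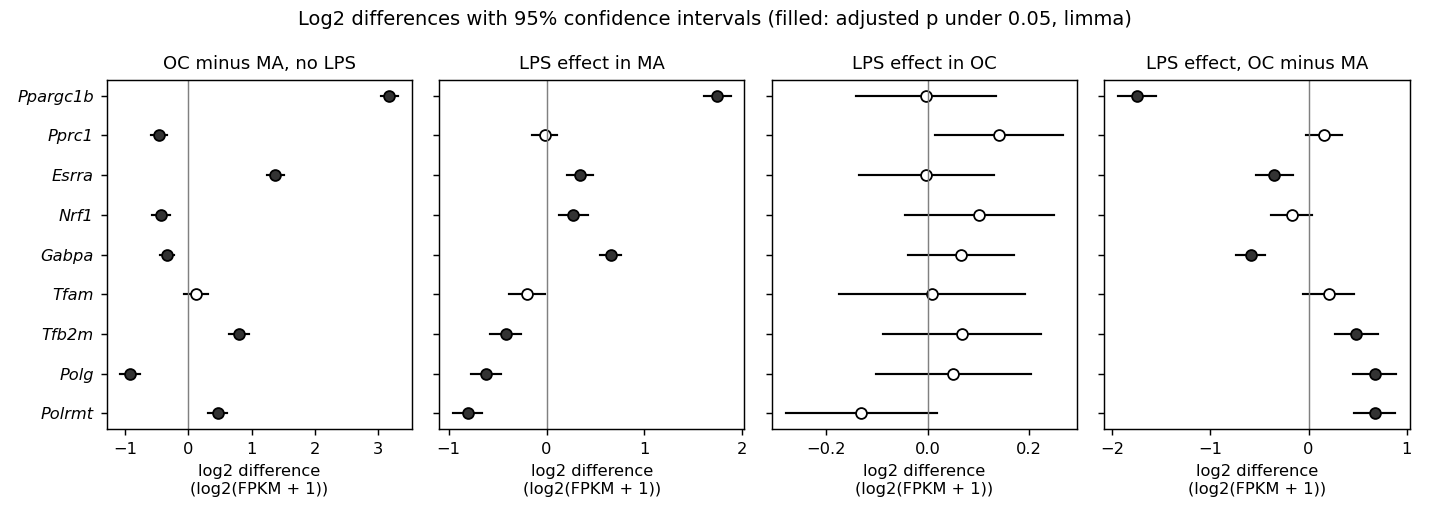
Log2 differences (horizontal axis, FPKM + 1 scale) of the 9 tested regulators in 4 contrasts, with 95% confidence intervals as lines and filled points for an adjusted p under 0.05 (limma). The panel of LPS in osteoclasts has a narrower axis and no filled point, while Ppargc1b stands furthest from 0 in the other 3 panels, at 3.17, 1.74 and -1.75.

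The scaling bears on the direction of small changes. The denominators of the deposited values followed size factors, which hold the typical gene level, and not read totals: LPS-treated macrophage libraries had FPKM sums of 399796 to 408994, against 255852 to 261584 in untreated macrophages. With each library rescaled to the same sum (TPM), the typical gene (the median log2 difference over all genes) stood at -0.55 for LPS in macrophages, -0.38 between the untreated cell types, 0.12 between the treated ones and 0.51 for the interaction. Quantile normalization moved the first of these to -0.14. TPM multiplies all genes of a library by 1 factor, so it moves the zero of a contrast and hardly the order of the genes. Counted from 0, 1 regulator was higher and 7 were lower with LPS in macrophages after rescaling to TPM, and 3 were higher and 5 lower after quantile normalization. Of all 11335 genes 9730 and 8244 were called there, with 18.5% and 37.0% of the calls higher. Differences below are therefore changes relative to the typical gene, and turned directions of the regulators under TPM or quantile normalization are given beside the values.

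Ppargc1b (ENSMUSG00000033871, chromosome 18, 61298136 to 61400431, GRCm38) encodes PGC-1beta, the coactivator that partners ERRalpha. Its levels were 1.57, 1.55 and 1.52 FPKM in untreated macrophages and 7.79, 7.36 and 7.40 FPKM after LPS, from 135 to 145 and 397 to 438 reads. Untreated osteoclasts had 21.4, 20.2 and 24.3 FPKM and LPS-treated ones 20.7, 23.0 and 22.0 FPKM. The order was untreated macrophages, then LPS-treated macrophages, then both osteoclast groups, whose libraries overlapped each other and no macrophage library. Osteoclasts without LPS were 14.2 times macrophages (log2 difference 3.17, SE 0.06, adjusted p 6.41e-13 by limma). LPS raised the macrophage level 4.87-fold (mean 1.54 ± 0.0243 without and 7.52 ± 0.242 FPKM with LPS, SD, n = 3), by 1.74 on the log2 scale (limma adjusted p 1.50e-10). In osteoclasts the difference was -0.0031 with a 95% interval from -0.14 to 0.13. The LPS effect was therefore lower in osteoclasts by 1.75 on the log2 scale (limma interaction, adjusted p 1.08e-08). After LPS the distance between the cell types was 2.91-fold, and all 3 osteoclast libraries stayed above all 3 macrophage libraries.

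Pprc1 (ENSMUSG00000055491, chromosome 19, 46044886 to 46072915) encodes PRC, the PGC-1 relative known for early induction when cells enter growth. Macrophages had 8.79, 9.17 and 8.76 FPKM without and 8.64, 8.76 and 8.97 FPKM with LPS. Osteoclasts had 6.05, 6.62 and 6.00 FPKM without and 6.42, 7.65 and 6.85 FPKM with LPS. Each osteoclast library lay below each macrophage library, and within a cell type the LPS groups overlapped. Pprc1 was 1.43-fold lower in untreated osteoclasts (log2 difference -0.46, SE 0.06, limma adjusted p 1.36e-05), opposite to Ppargc1b. The LPS difference in macrophages was -0.02 (95% interval -0.14 to 0.11) and in osteoclasts 0.14 (0.01 to 0.27, adjusted p 0.122 by limma). The difference between these effects was 0.16 (adjusted p 0.123 by limma); it was called without replicate 1 of the LPS-treated osteoclasts (0.21, adjusted p 0.0402). Scaling decided 2 of these calls. In TPM and after quantile normalization limma called the macrophage difference (-0.64 and -0.18, adjusted p 3.77e-06 and 0.0148) and the interaction (0.73 and 0.28, adjusted p 4.83e-05 and 0.0127).

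The balance of the coactivators can be read within a library, where scaling drops out. The ratio of Ppargc1b to Pprc1 FPKM was 0.169 to 0.178 in untreated macrophages, 0.825 to 0.902 in LPS-treated macrophages, 3.05 to 4.05 in untreated osteoclasts and 3.00 to 3.23 in LPS-treated osteoclasts. Pprc1 FPKM was thus above that of Ppargc1b in every macrophage library, and the reverse held in every osteoclast library. The recovered reads had the same order in every library. Ppargc1a, which encodes the PGC-1alpha of muscle and brown fat, was at 0 in all libraries of 3 groups and at a mean of 0.0051 FPKM in LPS-treated osteoclasts. This ratio and those further on were chosen after the values were seen and carry no test.

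**Figure D2:**
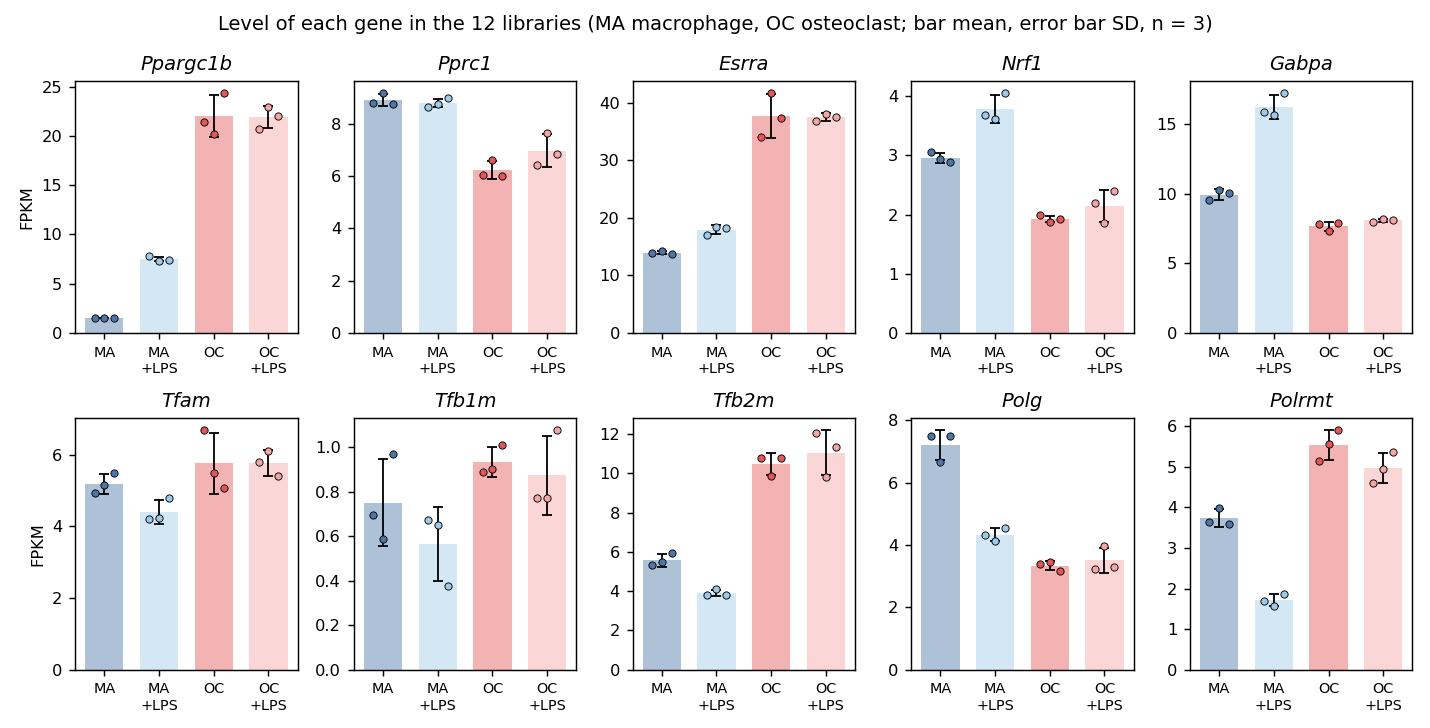
FPKM (vertical axis, from 0, scaled per panel) of the 10 regulators in untreated and LPS-treated macrophages (MA, blue) and osteoclasts (OC, red); points are libraries, bars means and error bars SD of 3 libraries. Ppargc1b climbs from a mean of 1.54 in untreated macrophages to 22.0 in untreated osteoclasts, and for Polg the untreated macrophages, at 7.21, stand above the other 3 groups.

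Esrra (ENSMUSG00000024955, chromosome 19, 6910977 to 6921813) encodes ERRalpha, and its stretch above carries the NRF1 letters. It had the highest FPKM of the 10 in all 4 groups. Macrophages had 13.9, 14.2 and 13.7 FPKM without LPS and 17.1, 18.4 and 18.3 FPKM with it. Osteoclasts had 34.1, 41.7 and 37.4 FPKM without and 36.8, 38.1 and 37.6 FPKM with LPS. The order of the groups was the same as for Ppargc1b, with the osteoclast groups overlapping. Esrra was 2.71-fold higher in untreated osteoclasts (log2 difference 1.37, SE 0.06, limma adjusted p 6.63e-10). LPS in macrophages gave 1.29-fold (log2 difference 0.34, limma adjusted p 0.000292), a direction that turned to -0.28 after rescaling to TPM and to -0.0013 after quantile normalization, against typical-gene shifts of -0.55 and -0.14. In osteoclasts the LPS difference was -0.0031 (95% interval -0.14 to 0.13). The interaction was -0.35 (limma adjusted p 0.00445), which turned to 0.20 in TPM, where the typical gene moved by 0.51, and was -0.067 and not called after quantile normalization (adjusted p 0.505).

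Nrf1 (ENSMUSG00000058440, chromosome 6, 30047988 to 30153458) encodes a factor of respiratory chain and Tfam promoters. Macrophage levels were 3.05, 2.93 and 2.89 FPKM without and 3.68, 3.62 and 4.06 FPKM with LPS. Osteoclasts had 1.99, 1.88 and 1.93 FPKM without and 2.19, 1.86 and 2.40 FPKM with LPS. All osteoclast libraries lay below all macrophage libraries, and the osteoclast groups overlapped. Untreated osteoclasts were 1.53-fold lower (log2 difference -0.43, SE 0.07, limma adjusted p 7.76e-05). LPS raised Nrf1 1.28-fold in macrophages (log2 difference 0.27, limma adjusted p 0.00312), where TPM turned the value to -0.27 against the typical-gene shift of -0.55. The LPS difference in osteoclasts was 0.10 (95% interval -0.05 to 0.25), and the interaction of -0.17 was not called (limma adjusted p 0.146); in TPM it was 0.33 and after quantile normalization -0.24, both called (adjusted p 0.022 and 0.0333). Within libraries the ratio of Esrra to Nrf1 was 4.54 to 4.85 and 4.52 to 5.09 in the macrophage groups, and 17.2 to 22.2 and 15.7 to 20.5 in the osteoclast groups. LPS left that ratio overlapping in each cell type, while the ranges of the cell types were far apart.

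Gabpa (ENSMUSG00000008976, chromosome 16, 84834925 to 84863779) encodes the DNA-binding subunit of the GABP complex. Its values in macrophages were 9.54, 10.3 and 10.1 FPKM without LPS and 15.9, 15.7 and 17.3 FPKM with it. Those in osteoclasts were 7.87, 7.31 and 7.88 FPKM without LPS and 7.97, 8.17 and 8.14 FPKM with it. The 4 groups did not overlap, in the order untreated osteoclasts, LPS-treated osteoclasts, untreated macrophages, LPS-treated macrophages, although the osteoclast groups differed by 1.05-fold and were not called apart (log2 difference 0.07, 95% interval -0.04 to 0.17). LPS raised Gabpa 1.63-fold in macrophages (log2 difference 0.66, SE 0.05, limma adjusted p 1.12e-07), which in TPM was 0.06 and not called, against the shift of -0.55. Untreated osteoclasts were 1.29-fold lower than macrophages (log2 difference -0.33, limma adjusted p 3.94e-05), and treated ones 2.01-fold lower (-0.92, adjusted p 2.08e-09). The LPS effects differed by -0.59 (limma adjusted p 1.29e-05), and by -0.05, not called, in TPM.

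GABPA works with a partner subunit encoded by Gabpb1 and Gabpb2. Gabpb1 also rose with LPS in macrophages, from 4.19 ± 0.235 to 7.71 ± 0.531 FPKM (SD, n = 3; log2 difference 0.75, limma adjusted p 5.33e-07), and was at 2.09 ± 0.0431 and 2.64 ± 0.248 FPKM in osteoclasts without and with LPS. That small rise in osteoclasts was called (0.23, limma adjusted p 0.0268), but the call was lost when any 1 untreated osteoclast library or replicate 3 of the treated ones was left out (adjusted p from 0.0619 to 0.0879), and also with no filter, in TPM and in a fit of the 2 osteoclast groups alone (0.057, 0.0826 and 0.0778). Gabpb2 went the other way with LPS in macrophages, from 4.11 ± 0.236 to 2.28 ± 0.192 FPKM (SD, n = 3, log2 difference -0.64, limma adjusted p 3.07e-06). Within libraries Gabpa stood to Gabpb1 at 2.25 to 2.56 and 1.90 to 2.39 in macrophages and at 3.48 to 3.86 and 2.79 to 3.26 in osteoclasts. Over the 12 libraries the ratio of Gabpa to Gabpb1 thus ran from 1.90 to 3.86, a narrower range than that of the coactivators.

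Tfam (ENSMUSG00000003923, chromosome 10, 71225464 to 71238280) encodes the protein that coats mitochondrial DNA and bends its promoters. Macrophages had 4.93, 5.15 and 5.48 FPKM without and 4.20, 4.23 and 4.79 FPKM with LPS. Osteoclasts had 6.69, 5.48 and 5.08 FPKM without and 5.80, 6.10 and 5.39 FPKM with LPS. Tfam varied least between groups of the 9 tested genes in mean level, from 4.41 to 5.76 FPKM, and untreated osteoclasts overlapped untreated macrophages. Their log2 difference was 0.12 (95% interval -0.06 to 0.30, limma adjusted p 0.213), and -0.26 and called in TPM (adjusted p 0.0223). The macrophage libraries with LPS lay below those without, and the difference of -0.19 (95% interval -0.38 to -0.01) did not pass the adjusted threshold (limma adjusted p 0.0562). It passed without replicate 3 of the LPS-treated macrophages (adjusted p 0.0353) and, through the shared spread, without replicate 1 or 3 of the untreated osteoclasts (0.0182 and 0.0401). It also passed in a fit of the macrophage groups alone (0.0336), after quantile normalization (-0.21, 0.0418) and in TPM (-0.83, 4.19e-06). In osteoclasts the LPS difference was 0.0091 (95% interval -0.17 to 0.19), which turned to -0.056 in TPM and -0.039 after quantile normalization, not called under any of the 3. The interaction of 0.20 was not called (limma adjusted p 0.166) but was without replicate 1 of the untreated osteoclasts (0.30, adjusted p 0.0206) and in TPM (0.77, adjusted p 0.000241). With LPS in both, Tfam was 1.31-fold higher in osteoclasts (log2 difference 0.32, limma adjusted p 0.0034).

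Polrmt (ENSMUSG00000020329, chromosome 10, 79736123 to 79746581) encodes the RNA polymerase that transcribes mitochondrial DNA and primes its replication. Untreated macrophages had 3.63, 3.99 and 3.59 FPKM and LPS-treated ones 1.69, 1.57 and 1.87 FPKM, from 375 to 440 and 101 to 123 reads. Osteoclasts had 5.15, 5.56 and 5.90 FPKM without and 4.60, 4.94 and 5.36 FPKM with LPS. LPS-treated macrophages stood alone at the low end, and the osteoclast groups overlapped at the high end. Among the tested regulators Polrmt had the lowest LPS difference in macrophages, 2.19-fold lower (log2 difference -0.81, SE 0.07, limma adjusted p 4.28e-07). The osteoclast difference was -0.13 (95% interval -0.28 to 0.02, limma adjusted p 0.217), and the effects differed by 0.68 (adjusted p 7.81e-05). Osteoclasts were 1.48-fold higher without LPS (log2 difference 0.46, limma adjusted p 4.91e-05), which in TPM was 0.14 and not called, and 2.90-fold higher with LPS (1.14, adjusted p 8.18e-09).

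Tfb2m (ENSMUSG00000026492, chromosome 1, 179528055 to 179546267) encodes the factor with which POLRMT opens mitochondrial promoters. Macrophages had 5.31, 5.46 and 5.96 FPKM without and 3.83, 4.11 and 3.81 FPKM with LPS. Osteoclasts had 10.8, 9.86 and 10.8 FPKM without and 12.1, 9.79 and 11.3 FPKM with LPS. The groups took the same order as for Polrmt, low in LPS-treated macrophages and high in both overlapping osteoclast groups. Tfb2m was 1.88-fold higher in untreated osteoclasts (log2 difference 0.80, SE 0.07, limma adjusted p 4.59e-07) and 2.82-fold higher in treated ones (1.29, adjusted p 3.63e-09). LPS lowered it 1.42-fold in macrophages (log2 difference -0.42, limma adjusted p 0.000204), against 0.07 in osteoclasts (95% interval -0.09 to 0.22). The interaction was 0.49 (limma adjusted p 0.0013).

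Tfb1m (ENSMUSG00000036983, chromosome 17, 3519256 to 3557781) encodes the relative of TFB2M that methylates mitochondrial ribosomal RNA, and it was the lowest of the 10 in every group. It was at 0.693, 0.589 and 0.971 FPKM in untreated and 0.673, 0.650 and 0.375 FPKM in LPS-treated macrophages. In osteoclasts it was at 0.886, 0.902 and 1.01 FPKM without and 0.770, 0.773 and 1.08 FPKM with LPS. These values rest on 19 to 78 reads per library, and the LPS-treated macrophages lay below both osteoclast groups, while every other pair of groups overlapped. In a fit with no filter on low values it was called in 0 of the 5 contrasts (limma adjusted p from 0.0808 to 0.967), and at an unadjusted p under 0.05 only between the LPS-treated cell types (log2 difference 0.26, 95% interval 0.01 to 0.51). Tfb2m stood to Tfb1m within libraries at 6.14 to 9.27 and 5.69 to 10.2 in macrophages and at 10.5 to 15.7 over both osteoclast groups.

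Polg (ENSMUSG00000039176, chromosome 7, 79446231 to 79466362) encodes the catalytic subunit of the DNA polymerase that copies mitochondrial DNA. Macrophages had 7.50, 6.65 and 7.48 FPKM without and 4.32, 4.12 and 4.54 FPKM with LPS. Osteoclasts had 3.40, 3.44 and 3.17 FPKM without and 3.24, 3.96 and 3.31 FPKM with LPS. Untreated macrophages stood above all others, LPS-treated macrophages came next, and the osteoclast groups overlapped at the bottom. Polg was 2.16-fold lower in untreated osteoclasts (log2 difference -0.92, SE 0.07, limma adjusted p 1.05e-07) and 1.24-fold lower in treated ones (-0.25, adjusted p 0.00588; -0.14 and not called in TPM). LPS lowered it 1.67-fold in macrophages (log2 difference -0.62, limma adjusted p 5.75e-06), while the osteoclast difference was 0.05 (95% interval -0.10 to 0.20; -0.0049 in TPM, not called either way), and the interaction was 0.67 (adjusted p 9.53e-05). The ratio of Polrmt to Polg, the RNA polymerase over the DNA polymerase, was 0.481 to 0.601 in untreated and 0.382 to 0.411 in LPS-treated macrophages. It was 1.51 to 1.86 in untreated and 1.25 to 1.62 in LPS-treated osteoclasts. In FPKM, Polrmt was the lower in all 6 macrophage libraries and the higher in all 6 osteoclast libraries. That crossing rests on merged exon lengths of 4685 bases for Polrmt and 10742 for Polg. Recovered reads of Polg outnumbered those of Polrmt in every library, with 674 against 445 in replicate 1 of the untreated osteoclasts. Which transcript was the more abundant is therefore not shown.

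**Figure D3:**
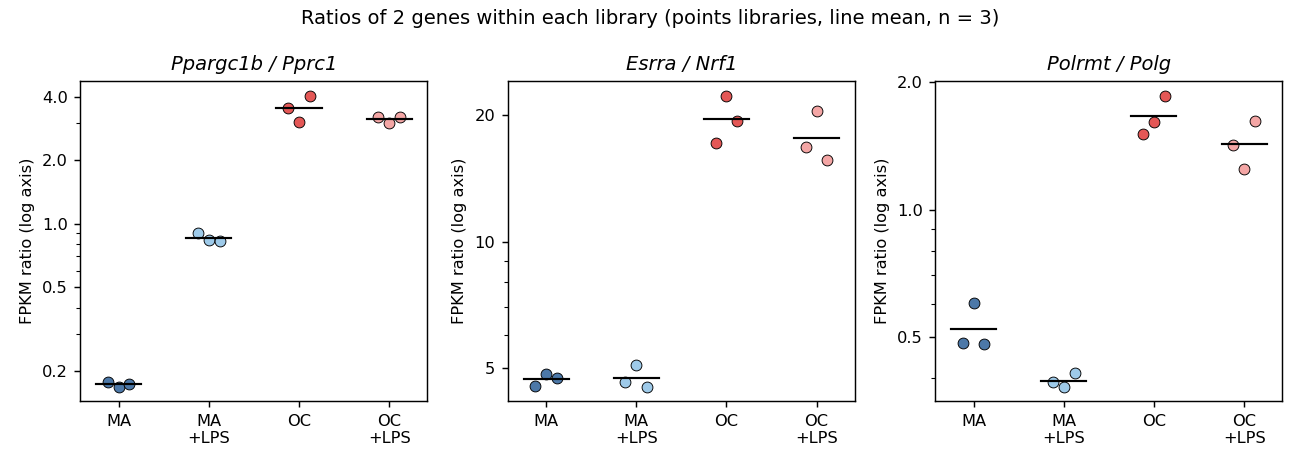
FPKM ratios within each library (log axes) of Ppargc1b to Pprc1, Esrra to Nrf1 and Polrmt to Polg in macrophages (MA) and osteoclasts (OC) with and without LPS; points are libraries and lines means of 3. All 3 ratios separate the cell types, and the coactivator ratio also rises in macrophages with LPS, from a mean of 0.173 to 0.856.

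Between the 10 genes the order of FPKM, which rests on the lengths used, changed with the group. Ppargc1b was the ninth of 10 in untreated macrophages, the fourth in LPS-treated macrophages and the second in both osteoclast groups, behind Esrra. Tfb2m was the fifth in untreated macrophages and the third in both osteoclast groups, and Polg went from the fourth to the eighth. Gabpa was the second in both macrophage groups and the fourth in both osteoclast groups, and Pprc1 was the third and the fifth.

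Exon sequence shared with a gene on the opposite strand makes some of these values uncertain, because whether counting was strand-specific is not given in the sources used here. The share of exon length concerned was 8.57% for Polg (with Fanci), 6.98% for Gabpa (with Atp5j), 3.94% for Tfb1m (with Tiam2), 2.82% for Pprc1 (with Ldb1) and 1.66% for Esrra (with Trmt112). Esrra also shared 2.07% with the microRNA gene Mir6990 on its own strand. Ppargc1b, Nrf1, Tfam, Tfb2m and Polrmt shared none.

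The genes whose pattern was most like that of Ppargc1b were Tgoln1, Slc39a1, Anpep, Eci2 and Ghitm, with Pearson correlations of 0.998, 0.997, 0.997, 0.996 and 0.996 on the log2 scale over the 12 libraries, among 6429 candidates averaging 5 FPKM or more. Eci2, an enzyme of unsaturated fatty acid oxidation, had means of 3.74, 7.28, 12.2 and 12.4 FPKM in untreated and treated macrophages and untreated and treated osteoclasts. Ghitm, which encodes a protein of the inner mitochondrial membrane, had 51.6, 95.7, 156.8 and 167 FPKM. The genes ranked before these were Tgoln1 (38.0, 60.2, 88.2 and 87.6 FPKM), Slc39a1 (52.7, 124, 275 and 284) and Anpep (18.2, 51.8, 142 and 127). For Pprc1 the nearest were Spire1 (0.978), Tmem106c (0.970), Fnbp1 (0.966), Cdk17 (0.965) and Bid (0.956), all higher in macrophages. These correlations rest on 4 clusters of 3 libraries that share a scaling, and are a description with no test.

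Around the regulators, 11 of 16 genes of a list of other upstream regulators could be tested. Between untreated cell types 3 were higher and 6 lower in osteoclasts, with a median of -0.17, where 38.8% and 39.0% of all genes were. In TPM 1 was higher and 9 were lower, with a median of -0.59, where 29.9% of the 9217 calls over all genes were higher. Prkaa1, the AMPK catalytic subunit, was 2.13-fold lower there (17.6 ± 0.268 against 8.29 ± 1.18 FPKM, SD, n = 3; log2 difference -1.01, limma adjusted p 4.23e-08). LPS in macrophages gave 4 higher and 5 lower (2 and 7 in TPM), against 36.8% and 33.1% of all genes as deposited. In TPM 18.5% of the 9730 calls over all genes were higher. The extremes of the list were Sirt1 and Myc. Sirt1, a deacetylase that acts on PGC-1 proteins, rose from 3.69 ± 0.0505 to 11.1 ± 0.329 FPKM (SD, n = 3; log2 difference 1.36, limma adjusted p 2.39e-11), against 5.39 ± 0.125 and 5.24 ± 0.0127 FPKM in osteoclasts. Myc, a growth factor-driven activator of mitochondrial genes, fell from 23.7 ± 1.34 to 1.82 ± 0.483 FPKM (log2 difference -3.14, limma adjusted p 1.11e-10), against 9.57 ± 0.431 and 10.9 ± 1.07 FPKM in osteoclasts. In osteoclasts LPS gave 1 higher (Gabpb1, described above) and 1 lower (Gabpb2, with a log2 difference of -0.21 and a limma adjusted p of 0.0478), where 11.1% of all genes were higher and 6.59% lower. These counts were 0 and 2 in TPM and 1 and 0 with a pseudocount of 0.1. The Gabpb2 call was lost with that pseudocount (adjusted p 0.0566) and when any of 10 of the 12 libraries was left out (0.0539 to 0.169), all but replicate 1 of the treated macrophages and replicate 3 of the treated osteoclasts.

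Of 16 mitochondrial DNA maintenance genes, all tested, LPS in macrophages gave 3 higher and 6 lower, with a median of -0.11, against 36.8% and 33.1% of all genes. In TPM 0 were higher and 12 lower, with a median of -0.70, where 18.5% of the 9730 calls over all genes were higher. The lowest were Tk2, Mgme1 and Twnk. Tk2, the thymidine kinase that supplies the organelle with nucleotides, fell from 10.8 ± 0.193 to 3.72 ± 0.356 FPKM (SD, n = 3; log2 difference -1.32, limma adjusted p 6.59e-10), and in osteoclasts from 7.23 ± 0.282 to 5.98 ± 0.168 FPKM (-0.24, adjusted p 0.0118, lost without replicate 2 of the untreated osteoclasts, 0.0522). Mgme1, an exonuclease of mitochondrial DNA replication, had a difference of -1.20 (limma adjusted p 8.16e-08) and Twnk, the replicative helicase, one of -0.77 (adjusted p 0.00024). Polg2, the accessory subunit of POLG, went the other way and rose from 1.47 ± 0.0795 to 2.50 ± 0.196 FPKM (log2 difference 0.50, limma adjusted p 0.000129; 0.10 and not called in TPM). Between untreated cell types 8 of the 16 were higher and 4 lower in osteoclasts, with a median of 0.30, against 38.8% and 39.0% of all genes. In TPM 6 were higher and 5 lower, with a median of -0.0084, where 29.9% of the 9217 calls over all genes were higher. Polg2, like Polg, was lower there (-0.68, limma adjusted p 6.87e-06), while Twnk (0.70, adjusted p 0.000403) and Lonp1, the protease that degrades TFAM (1.46, adjusted p 2.04e-10), were higher.

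The lists further downstream were mostly higher in osteoclasts. Without LPS, 16 of 21 tested genes of mitochondrial transcription and RNA processing were higher and 2 lower (median 0.71), 9 of 10 translation factors were higher and 0 lower (median 0.75), 21 of 22 import genes were higher and 1 lower (median 1.19), and 13 of 13 mitochondrially encoded mRNAs were higher (median 2.04), where 38.8% of all genes were higher. After rescaling to TPM these counts were 13 and 3, 7 and 1, 17 and 2, and 13 and 0. There 29.9% of the 9217 calls over all genes were higher. The highest included Hsd17b10, a subunit of mitochondrial RNase P (log2 difference 2.30, limma adjusted p 2.52e-12), Gfm1 and Tufm, elongation factors of the organelle (2.06 and 1.70, adjusted p 5.91e-13 and 2.65e-11), and Hspd1, Hspe1 and Hspa9, its chaperones (1.83, 1.67 and 1.64, adjusted p 8.86e-12, 2.00e-09 and 2.86e-11). Timm17b, an import channel subunit, was the 1 import gene that was lower (-0.59, limma adjusted p 2.85e-05). The regulators themselves were split 4 to 4 in the same comparison as deposited, and were 3 higher and 5 lower in TPM.

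With LPS in macrophages, where 36.8% of all genes were higher and 33.1% lower as deposited, the counts of the same lists depended on the scaling. Over all genes 18.5% of 9730 calls were higher in TPM and 37.0% of 8244 after quantile normalization. Translation factors had 1 gene higher and 6 lower (median -0.39), and 0 and 10 in TPM. The higher one was Gfm1 at 0.11 (limma adjusted p 0.0310), with -0.51 in TPM, -0.12 after quantile normalization and no call with voom (adjusted p 0.0705) or without replicate 1 of the untreated or replicate 1 or 2 of the treated macrophages (0.0553 to 0.132). Among the lower ones was Tsfm at -0.53 (limma adjusted p 1.10e-05). Genes of transcription and RNA processing had 5 higher and 6 lower (1 and 17 in TPM), and named among them are Pnpt1, an RNA exonuclease subunit (from 8.17 ± 0.285 to 34.5 ± 3.41 FPKM, SD, n = 3; log2 difference 1.95, limma adjusted p 2.23e-10), Tefm, the elongation factor that works with POLRMT (0.57, adjusted p 4.41e-05; 0.03 and not called in TPM), and Trmt10c, another RNase P subunit (-0.91, adjusted p 8.34e-09). Import genes had 10 higher and 4 lower as deposited, a balance that turned to 0 and 20 in TPM and 3 and 14 after quantile normalization, with Tomm70a at 0.59 (limma adjusted p 9.32e-08; -0.02 in TPM) and Timm9 at -0.68 (adjusted p 2.52e-05). In osteoclasts LPS gave 3 calls among the 21, 0 among the 10 translation factors and 2 among the 22 import genes, where 17.7% of all genes were called. In TPM and after quantile normalization 0 of the 21 were higher and 1 lower. Of the import genes 1 was higher in TPM and 0 after quantile normalization, with 0 lower. Over all genes 2161 and 2461 of 11335 were called under these scalings.

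The mitochondrially encoded mRNAs are the transcripts that POLRMT, TFAM and TFB2M make. Their summed level was 9655 ± 425 FPKM in untreated macrophages, 12465 ± 558 FPKM in LPS-treated macrophages, 41751 ± 1912 FPKM in untreated osteoclasts and 43596 ± 4616 FPKM in those given LPS (SD, n = 3). As a share of assigned reads, all genes of the mitochondrial chromosome held 1.50% to 1.62%, 1.27% to 1.37%, 5.37% to 5.90% and 5.16% to 6.18%. This share is relative to the read total of each library and is not limited to the 13 mRNAs. The cell types stood far apart by either measure, and the osteoclast groups overlapped. With LPS in macrophages the direction depended on the scaling: 8 of 13 were higher and 0 lower as deposited, and 0 were higher and 8 lower in TPM. Over all genes 36.8% were higher and 33.1% lower as deposited, and 18.5% of the 9730 calls in TPM were higher. For mt-Nd4 the difference was 0.40 as deposited (limma adjusted p 0.00158), -0.25 in TPM and -0.59 after quantile normalization, whereas between untreated cell types mt-Nd4 and mt-Cytb were higher by 2.26 and 2.23 (adjusted p 2.06e-10 and 7.51e-11).

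**Figure D4:**
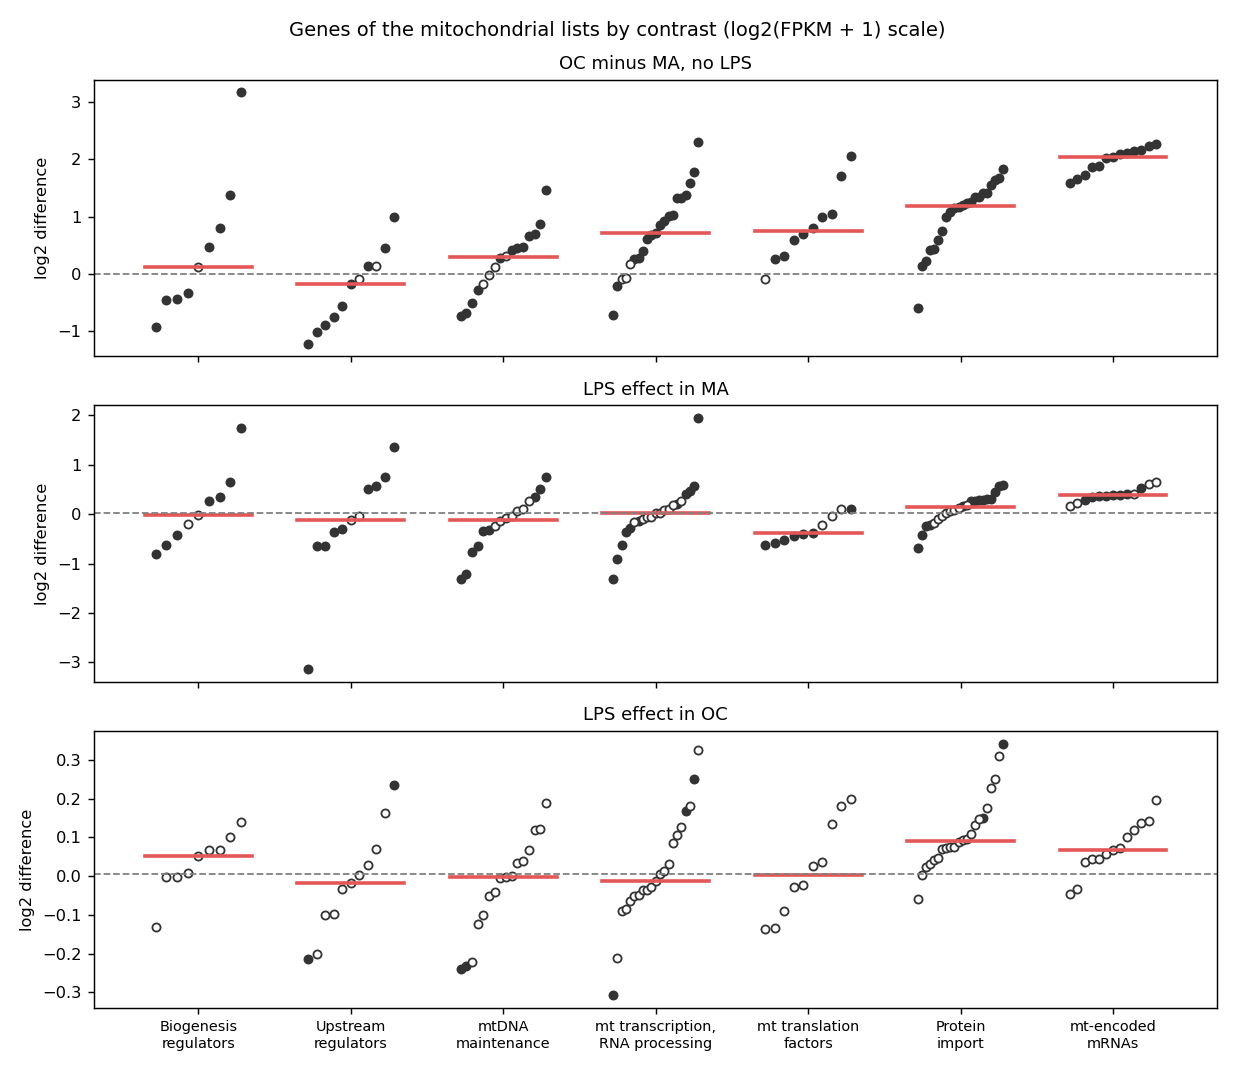
Log2 differences (vertical axis, FPKM + 1 scale) of every tested gene in the regulator list and 6 further mitochondrial lists, for osteoclasts minus macrophages and for LPS in each cell type; filled points have an adjusted p under 0.05 (limma), red lines are list medians and the dashed line is the median of all genes. Medians between untreated cell types run from -0.17 for upstream regulators to 2.04 for mitochondrially encoded mRNAs, with the regulators at 0.12, and the axis for LPS in osteoclasts is the narrowest of the 3.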

How the data were processed

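The authors deposited FPKM values of 54532 Ensembl genes in 12 libraries. The submitters' processing notes name fastp, STAR, featureCounts, DESeq2 and build mm10 without roles; the use of strand is not given in the sources used here. Whole reads (tolerance 0.02) were recovered for 25633 of 25854 genes above 0 (99.1%), and lengths of merged exons in GENCODE M21 fitted 96.7%. The denominators lay within 0.069% of size factors times mean depth, so changes are relative to the typical gene; this is inferred from the values.

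Genes that reached 1 FPKM in 3 or more libraries were fitted with limma 3.58.1 in R 4.3.3 (variance trend) on log2(FPKM + 1), which understates changes of low genes; tests were two-sided. A fold is the ratio of mean FPKM. The contrasts between cell types and the LPS effects share libraries. With 3 against 3 libraries an exact permutation test cannot go below 0.1, so limma alone is given. Steps were tested on simulated data.

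The members and lists were chosen with earlier results of these data known. Named were all members, the 5 genes most correlated with Ppargc1b and Pprc1, and genes among the 3 highest and 3 lowest calls of a list in a contrast; which of these to print was decided after their values were seen. The labels do not say whether replicate numbers pair the libraries, and the main fit used no pairing. Correlations of deviations ran from -0.07 to 0.10 over 18 pairs, 1 of them over 0.1. Between untreated and LPS-treated libraries of the same cell type they ran from -0.05 to 0.10. Whether libraries shared a culture or day cannot be told from these values. Replicates differed by more than sampling noise (chi-square per degree of freedom 2.69 to 13.7, from 9.51 in LPS-treated osteoclasts and at most 6.97 elsewhere). Of the printed list genes, Twnk, Mgme1, Hspd1, Hspe1, Polg2, Tsfm, Sirt1, Gabpb1, Gabpb2, Gfm1, Timm9, Tomm70a and Timm17b overlap exons of an opposite-strand gene and are uncertain to that extent. Promoter sequences are from RefSeq (GRCm38.p6) and positions from GENCODE M21 (GRCm38). The alternatives were TPM, quantile normalization, a pseudocount of 0.1, tests without a filter or only of genes averaging 5 FPKM, fits of only the groups compared, a replicate block, voom on recovered reads and leaving out each library.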

Additional observations from a re-analysis of the deposited data

Results flagged for a closer look

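For 21 of the members and list genes printed with an LPS difference, 6 of them among the 9 tested regulators, the interaction of limma was called. Osteoclasts and macrophages thus differed in their LPS effect, where 56.6% of all tested genes passed. The list genes were picked from the extreme calls of their lists, so the count of 21 cannot be read against that share. Values are the effect in osteoclasts minus that in macrophages on the log2 scale. Among the regulators it was -1.75 for Ppargc1b, -0.59 for Gabpa and -0.35 for Esrra, whose macrophage level rose, and 0.49 for Tfb2m, 0.67 for Polg and 0.68 for Polrmt, whose macrophage level fell. The Esrra value turned to 0.20 in TPM and was not called after quantile normalization (-0.067, limma adjusted p 0.505), and the Esrra rise in macrophages turned to -0.28 in TPM. The Gabpa value was not called in TPM (-0.05, adjusted p 0.549). In osteoclasts the LPS difference of none of these 6 was called.

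Among the listed genes that rose in macrophages, the difference was -1.70 for Pnpt1, -1.39 for Sirt1, -0.60 for Tefm, -0.51 for Gabpb1, -0.50 for Polg2, -0.49 for Tomm70a and -0.35 for mt-Nd4. The mt-Nd4 value was called with a limma adjusted p of 0.0301 and lost that call when replicate 1 of either macrophage group, replicate 1 of the untreated osteoclasts or replicate 2 or 3 of the treated osteoclasts was left out (0.0525 to 0.0723) and with no filter on low values (0.116). In TPM the values of Gabpb1, Tomm70a and mt-Nd4 turned to 0.010, 0.042 and 0.22, that of mt-Nd4 to 0.55 after quantile normalization, and those of Tefm (-0.13, limma adjusted p 0.381) and Polg2 (-0.14, adjusted p 0.491) were not called. Among those that fell, it was 3.31 for Myc, 1.08 for Tk2, 1.08 for Trmt10c, 0.98 for Mgme1, 0.91 for Timm9, 0.84 for Twnk, 0.71 for Tsfm and 0.43 for Gabpb2.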

How the results depend on the processing

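A pseudocount of 0.1 and voom changed no call of the members; of the printed list genes Gabpb2 lost its call for LPS in osteoclasts with that pseudocount and Gfm1 its call for LPS in macrophages with voom. The replicate block changed no call of the members and, of the printed list genes, that of Gabpb2 for LPS in osteoclasts (limma adjusted p 0.0627): with the block, 7, 0, 8, 9 and 6 members were called for LPS in macrophages, LPS in osteoclasts, the cell types without LPS, with LPS and the interaction, with 7914, 1930, 8787, 9512 and 6422 genes in all. A mean of at least 5 FPKM left 6 members and 6430 genes in all to test. It called 4 of the 6 members for LPS in macrophages and 5 of the 6 between untreated cell types. Of the 6430 genes it called 4851, 5427, 5694 and 4018 for LPS in macrophages, the cell types without and with LPS and the interaction. Otherwise these were 7921, 8822, 9509 and 6413 of 11335 genes.

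Only the members and the list-gene differences printed were followed here, not every list gene. Among their called values, and uncalled ones that became called, reversals came with scaling only. In TPM they were Esrra (-0.28), Nrf1 (-0.27), Tomm70a (-0.016), Gfm1 (-0.51) and mt-Nd4 (-0.25) for LPS in macrophages, Tfam (-0.26) between untreated cell types, and Esrra (0.20), Nrf1 (0.33), Gabpb1 (0.010), Tomm70a (0.042) and mt-Nd4 (0.22) for the interaction. With quantile normalization they were Esrra (-0.0013), Gfm1 (-0.12) and mt-Nd4 (-0.59) for LPS in macrophages and mt-Nd4 (0.55) for the interaction. For LPS in osteoclasts, with no call under any scaling, Tfam also turned sign (-0.056 in TPM, -0.039 after quantile normalization) and Polg did (-0.0049 in TPM). The TPM shift of all genes, -0.55 for LPS in macrophages and 0.51 for the interaction, is part of these values. Higher genes made up 52.6%, 49.9% and 47.0% of calls for LPS in macrophages, the untreated cell types and the interaction as deposited, 18.5%, 29.9% and 82.0% in TPM, 37.0%, 51.5% and 59.9% after quantile normalization, and 64.2%, 54.9% and 36.7% at a mean of at least 5 FPKM. Of the comparisons that left out 1 library, 1112 kept direction and call, 5 gained and 23 lost a call. Depth limits Tfb1m most, with 19 to 78 reads per library.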
